A study of Mus musculus with 6 samples.

Results

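This report covers *Trp53*, which encodes the transcription factor p53, and 9 of its direct transcriptional targets: *Cdkn1a*, *Mdm2*, *Ccng1*, *Zmat3*, *Sesn1*, *Phlda3*, *Eda2r*, *Trp53inp1* and *Plk2*. The 10 genes, like the gene lists used below, were chosen with earlier results of these data known. They were chosen by name as known members of the p53 pathway, and each matched 1 of the 24499 gene rows. They were followed in RNA-seq of YFP+ iGCBs sorted on day 3 from 3 cKO and 3 control mice. The term iGCB stands for an in vitro germinal center B cell, made here by giving naïve splenic B cells of individual mice IL-4 on irradiated 40LB feeder cells, BALB/c 3T3 fibroblasts engineered to carry CD40L and BAFF. The cKO mice were Eif3e fl/fl Cγ1Cre Rosa26-YFP LSL and delete floxed *Eif3e*, which encodes a subunit of the translation initiation complex eIF3, in cells that express Cre. The controls carried Cγ1Cre and Rosa26-YFP LSL without the floxed *Eif3e* alleles, so that Cre and the YFP reporter were shared by both groups, as was the C57BL/6J background. The age of the mice was not given in the sources used here. Cγ1Cre is switched on when the γ1 heavy chain constant region is transcribed, so recombination and YFP mark B cells after activation, and not all B cells of the culture.

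p53 is a sequence-specific transcription factor that is kept low in unstressed cells because MDM2, itself a p53 target, ubiquitinates it. When p53 is stabilised by DNA damage, ribosomal or oncogenic stress, it turns on genes that stop the cell cycle, brake growth signalling, repair DNA or kill the cell. In germinal center B cells, BCL6 represses the p53 gene, and these cells tolerate the DNA breaks that class switching and somatic hypermutation bring. mRNA levels do not report the p53 protein, whose amount is set largely by its turnover.

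Known p53 response elements are built from the p53 decamer, a palindromic consensus of 10 bases of which a full element holds a pair. To show what lies at these genes, the strict consensus was searched in windows from 250 bases before to 50 bases after each RefSeq start site (RefSeq, GRCm38.p6). It occurred in 8.4% of 32851 such windows, and a pair with at most 13 bases between its members in 24 windows (0.0731%). Windows were at hand for 8 of the 10 genes, *Zmat3* and *Trp53inp1* being the others, and 5 of their 10 windows held at least 1 decamer. These are printed 5′ to 3′ on the strand of the gene, the decamer in capitals with 20 bases on either side:

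Ccng1, chr11:40755442-40755491, minus strand: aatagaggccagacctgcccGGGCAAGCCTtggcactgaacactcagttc

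Cdkn1a, chr17:29090886-29090957, plus strand: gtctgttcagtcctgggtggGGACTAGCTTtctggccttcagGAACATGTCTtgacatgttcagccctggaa

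Mdm2, chr10:117710915-117710964, minus strand: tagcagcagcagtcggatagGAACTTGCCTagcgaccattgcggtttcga

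Sesn1, chr10:41887246-41887295, plus strand: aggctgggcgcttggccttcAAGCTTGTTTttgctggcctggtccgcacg

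Trp53, chr11:69580264-69580313, plus strand: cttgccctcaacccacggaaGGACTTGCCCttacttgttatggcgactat

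The window at the upstream start of *Cdkn1a* was the only one of these with a pair, 12 bases apart, and the 10 bases that follow its second decamer match the consensus at 9 of 10 positions. In *Ccng1* the 10 bases just before the decamer also match at 9 of 10 positions. The *Sesn1* decamer lies 173 bases before the downstream of its start sites, and none was found in the window of its other RefSeq start (chr10:41810574), which differs from the GENCODE start of the gene (chr10:41809935). A match describes these letters and is not a measured site, and the windows of *Phlda3*, *Plk2*, *Eda2r* and of the downstream *Cdkn1a* start held none.

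The libraries held 39079582 to 45504570 estimated counts, so that 3 counts correspond to at most 0.0768 CPM, the unit of counts scaled to each library's TMM-adjusted total that is used throughout. *Eif3e* read 150 to 173 CPM in the cKO libraries and 392 to 424 CPM in the controls, lower in every cKO library but not absent. *Xist* was high in cKO 2, control 1 and control 2 and at most 16 counts in the other libraries, so each group mixes mice that differ in *Xist*. B cell markers were present in every library, with cKO and control means of 764 ± 33.1 and 989 ± 35.3 CPM for *Cd79a*, 614 ± 26.6 and 789 ± 27.9 CPM for *Cd79b*, 701 ± 22.8 and 577 ± 59.6 CPM for *Ms4a1* and 197 ± 10.1 and 140 ± 10.0 CPM for *Pax5* (SD, n = 3 each). The 10 fibroblast markers, which feeder cells would bring, summed to 104 to 130 CPM in cKO and 78.6 to 144 CPM in control, with *Lum* at 0 in every library and 4 of the 10 never above 1 CPM. Of these, *Col5a1* and *Fn1* rose by 1.61 and 1.07 on the log2 scale and none fell. The 8 T cell and myeloid markers summed to 4.14 to 6.29 CPM in cKO against 1.53 to 2.62 CPM in control, of which *Adgre1* was the only one above 1 CPM and *Cd3e* was at 0 in every library. The 4 plasma cell markers summed to 157 to 176 CPM in cKO against 380 to 480 CPM in control, where *Jchain*, *Prdm1* and *Xbp1* fell and *Sdc1* rose. The myeloid and plasma cell sums moved with the groups, and their part in the results was not tested.

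Of the 10 genes, *Trp53*, *Cdkn1a*, *Ccng1*, *Zmat3* and *Phlda3* rose in cKO iGCBs, *Sesn1* and *Trp53inp1* fell, and *Mdm2*, *Plk2* and *Eda2r* did not pass the test. A gene is said to rise or fall where edgeR's quasi-likelihood test gave an adjusted p under 0.05 over the 13296 genes tested. That was so for 48.6% of all genes tested, 24.1% higher and 24.5% lower, so the 7 calls among 10 genes, 5 higher and 2 lower, have to be read against a transcriptome in which nearly as many genes were called as not. Past 1.5-fold as well were 5 of the 10 genes, *Ccng1*, *Zmat3*, *Phlda3*, *Sesn1* and *Trp53inp1*, beside 21% of all genes. The groups did not overlap for 7 of the 10 genes, beside 58.7% of all genes. The median log2 fold change was 0.49 over the 10 genes and −0.00 over all genes. The latter is largely set by the TMM scaling, so these are relative levels. In bulk RNA, a change in the share of cells that express a gene and a change in its RNA per cell cannot be told apart.

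**Figure D1:**
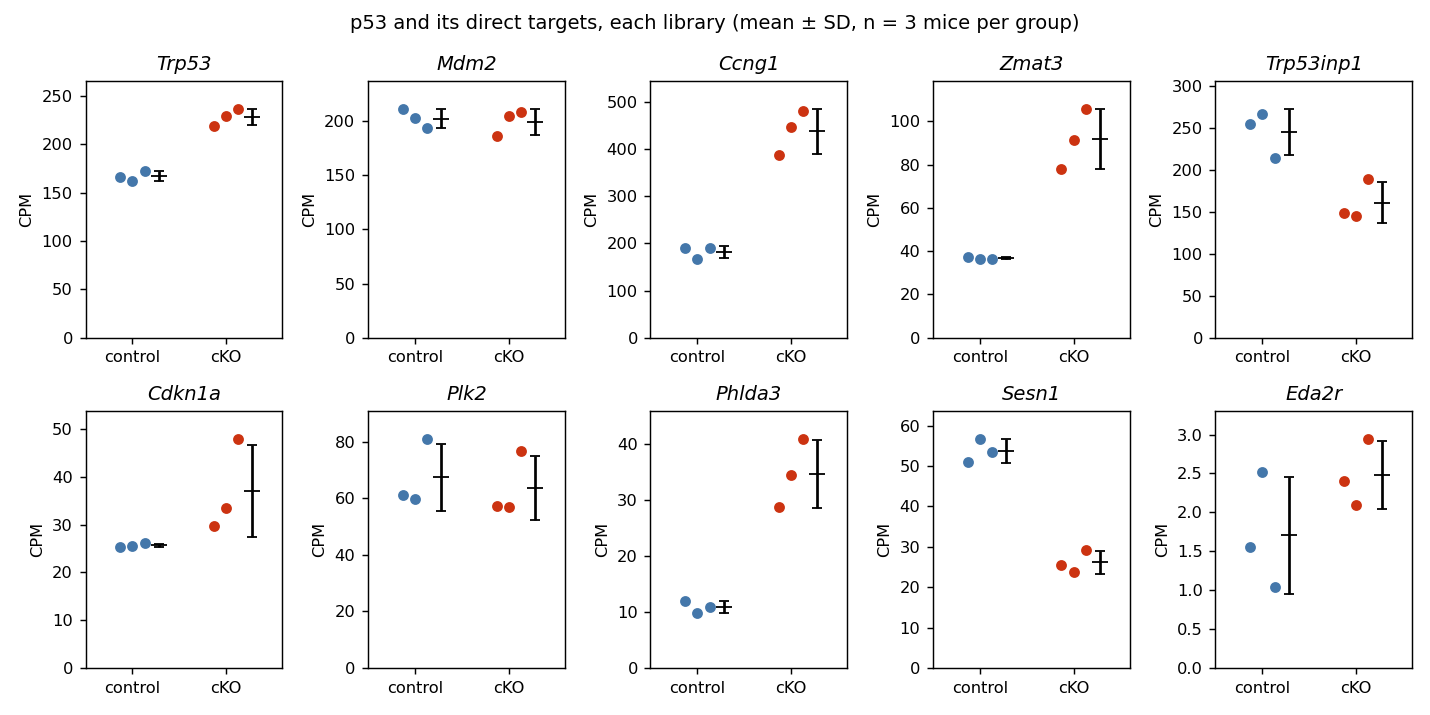
Level of each of the 10 genes in CPM (vertical axes, each starting at 0) in the 3 control (blue) and 3 cKO (red) libraries, with the mean and SD of each group in black. The cKO libraries of *Trp53*, *Ccng1*, *Zmat3*, *Cdkn1a* and *Phlda3* stand above all controls, those of *Sesn1* and *Trp53inp1* below, and *Mdm2*, *Plk2* and *Eda2r* overlap.

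The regulator itself came first. *Trp53* (chr11:69580359-69591873, plus strand, GENCODE M21 on GRCm38, as for the other gene positions) read 220, 230 and 237 CPM in cKO 1, 2 and 3 and 166, 162 and 173 CPM in control 1, 2 and 3. Every cKO library was above every control library, and the spread within each group was small beside the gap between them. The mean was 229 ± 8.56 CPM in cKO and 167 ± 5.4 CPM in control (SD, n = 3 each), with a log2 fold change of 0.45 (SE 0.0508, adjusted p = 5.58e-05, edgeR). The rise was thus 1.37-fold and short of 1.5-fold, and 60.3% of the genes tested had a smaller change in either direction. Of its 2 RefSeq transcripts, which share a start site, NM_011640 took 86.4% to 94.5% of the counts of *Trp53* and rose by a log2 fold change of 0.46 (adjusted p = 0.0031, edgeR on transcripts), whereas NM_001127233 had 0.38 with an adjusted p of 0.524.

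*Mdm2* (chr10:117688875-117710758, minus strand), the ubiquitin ligase that degrades p53 and that p53 induces, did not pass the test. It read 186, 205 and 208 CPM in cKO and 211, 203 and 194 CPM in control. The groups interleaved, with the lowest library a cKO and the highest a control. The log2 fold change was −0.02 (95% interval −0.15 to 0.11, adjusted p = 0.81, edgeR), and its sign differed between alternatives, from −0.05 to 0.03. Both of its transcripts overlapped between groups, with log2 fold changes of −0.04 for NM_010786 and 0.03 for NM_001288586.

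*Ccng1* (chr11:40748552-40755311, minus strand), whose cyclin G1 brings the phosphatase PP2A to MDM2 and so takes part in feedback on p53, had the most counts of the 10 genes in every cKO library but not in the controls. It read 387, 447 and 481 CPM in cKO and 190, 168 and 189 CPM in control. The lowest cKO library held over 2 times the level of the highest control. The mean rose from 182 ± 12.7 to 438 ± 47.8 CPM (SD, n = 3 each), with a log2 fold change of 1.26 (SE 0.0827, adjusted p = 2.6e-06, edgeR), and 92.7% of the genes tested had a smaller change. Of the feedback pair, *Ccng1* was 2.40-fold higher and *Mdm2* did not pass the test.

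*Zmat3* (chr3:32334792-32366014, minus strand) encodes a zinc finger protein that binds RNA and alters splicing and mRNA stability. It read 78.1, 91.3 and 106 CPM in cKO and 37.2, 36.6 and 36.5 CPM in control. The 3 control libraries lay within 1 CPM of each other and every cKO library was above them. The mean rose from 36.8 ± 0.357 to 91.8 ± 13.9 CPM (SD, n = 3 each), with a log2 fold change of 1.32 (SE 0.099, adjusted p = 4.96e-06, edgeR).

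*Trp53inp1* (chr4:11156431-11174379, plus strand), a stress-induced nuclear partner of p53 that also takes part in autophagy, moved the other way. It read 148, 145 and 189 CPM in cKO and 255, 267 and 214 CPM in control. The groups were apart, though cKO 3 and control 3 came near to each other. The mean fell from 245 ± 27.9 to 161 ± 24.4 CPM (SD, n = 3 each), with a log2 fold change of −0.61 (SE 0.109, adjusted p = 0.00106, edgeR). The fall was −0.85 between the libraries with high *Xist* and −0.35 between the others, and with *Xist* as a covariate it was −0.58. It lay close to 1.5-fold and was short of it with *Xist* as a covariate and without cKO 1 (−0.55), cKO 2 (−0.54), control 1 (−0.58) or control 2 (−0.55). Of its transcripts, NM_021897 fell (−0.54, adjusted p = 0.0119, edgeR) and NM_001199105 overlapped between groups (−0.75, adjusted p = 0.14).

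The 2 cell cycle genes were *Cdkn1a* and *Plk2*. *Cdkn1a* (chr17:29090976-29100727, plus strand), which encodes the CDK inhibitor p21, the best known effector of p53 arrest, read 29.8, 33.5 and 48.0 CPM in cKO and 25.4, 25.5 and 26.1 CPM in control. The control libraries were nearly equal, and the cKO libraries spread upward from just above them. The mean rose from 25.7 ± 0.372 to 37.1 ± 9.63 CPM (SD, n = 3 each), with a log2 fold change of 0.53 (SE 0.153, adjusted p = 0.0154, edgeR). Much of the size came from cKO 3, without which the log2 fold change was 0.30 (adjusted p = 0.0399). An unclassified gene model on the other strand overlaps *Cdkn1a*, and reads of the 2 cannot be told apart unless the counting used strand, which is not given in the sources used here.

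*Plk2* (chr13:110395046-110400844, plus strand), a polo-like kinase of centriole duplication, read 57.5, 56.8 and 76.7 CPM in cKO and 61.2, 59.9 and 81.1 CPM in control. The groups overlapped, and replicate 3 was the highest library in both. The log2 fold change was −0.08 (95% interval −0.39 to 0.23, adjusted p = 0.655, edgeR), with a sign that differed between alternatives, from −0.24 to 0.07. A change of 1.5-fold lies outside this interval.

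Growth signalling was represented by 2 brakes, which moved in opposite directions. *Phlda3* (chr1:135766119-135769136, plus strand) encodes a small pleckstrin homology domain protein that competes with AKT for membrane lipids. It read 28.7, 34.3 and 40.9 CPM in cKO and 11.9, 9.74 and 10.9 CPM in control. The lowest cKO library again held over 2 times the level of the highest control. The mean rose from 10.9 ± 1.1 to 34.6 ± 6.08 CPM (SD, n = 3 each), with a log2 fold change of 1.67 (SE 0.139, adjusted p = 8.91e-06, edgeR), the largest change of the 10 genes and above that of 96.3% of the genes tested.

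*Sesn1* (chr10:41809935-41908424, plus strand), whose sestrin 1 restrains mTORC1 when amino acids are short, read 25.4, 23.7 and 29.2 CPM in cKO and 50.9, 56.7 and 53.4 CPM in control. Every cKO library was far below every control library. The mean fell from 53.7 ± 2.93 to 26.1 ± 2.81 CPM (SD, n = 3 each), with a log2 fold change of −1.04 (SE 0.0939, adjusted p = 1.45e-05, edgeR), or 2.06-fold lower. A second gene model overlaps the *Sesn1* locus, so part of its counts is uncertain.

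*Eda2r* (chrX:97333840-97377216, minus strand), a receptor of the TNF receptor family for ectodysplasin A2, was the least expressed. It read 2.40, 2.09 and 2.95 CPM in cKO and 1.55, 2.52 and 1.04 CPM in control, from 43 to 125 counts. The groups overlapped through control 2. The log2 fold change was 0.54 (95% interval −0.22 to 1.30, adjusted p = 0.218, edgeR), and the interval includes changes of over 2-fold. The gene is X-linked, and its difference was 0.08 between the libraries with high *Xist* and 1.35 between the others.

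**Figure D2:**
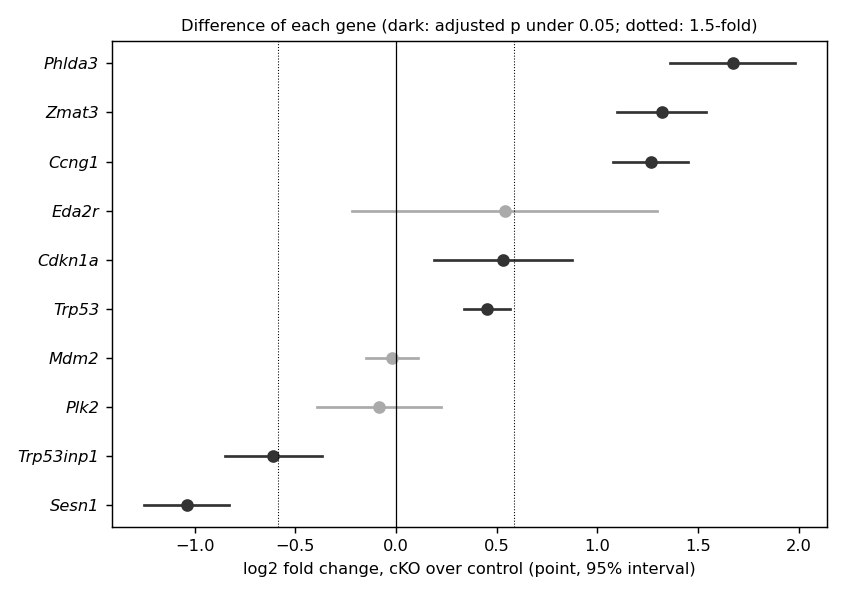
log2 fold change of cKO over control for the 10 genes (horizontal axis) with its 95% interval, dark where the adjusted p was under 0.05, with dotted lines at 1.5-fold. The values run from −1.04 for *Sesn1* to 1.67 for *Phlda3*, and the intervals of *Mdm2*, *Plk2* and *Eda2r* cross 0.

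Within the 3 libraries with high *Xist* and within the other 3, all 7 called genes kept the sign they had over all libraries, as did *Plk2* and *Eda2r*. *Mdm2* alone did not, with −0.01 and 0.02. Each of these splits has 1 library in 1 of its arms, so no test was made. For the genes without overlap, the exact permutation test over libraries gave a two-sided p of 0.1, the smallest that 3 against 3 can give.

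With the CPM of each transcript divided by the exonic length of its model and summed over the gene, the levels in control iGCBs ran from *Trp53* at 94.0 CPM per kb through *Mdm2* at 65.4, *Ccng1* at 52.0, *Trp53inp1* at 45.4, *Plk2* at 24.1, *Sesn1* at 18.3, *Cdkn1a* at 14.1, *Phlda3* at 7.58 and *Zmat3* at 4.72 to *Eda2r* at 0.36 CPM per kb. *Ccng1* and *Trp53inp1* were the only neighbours in this order whose control libraries overlapped. In cKO iGCBs *Ccng1* reached 125 CPM per kb, next to *Trp53* at 128, and *Phlda3* reached 24.1 CPM per kb. *Sesn1* was at 8.34 and *Zmat3* at 11.8 CPM per kb. For *Cdkn1a*, *Sesn1* and *Trp53*, whose transcripts differ in length, the level per kb rests on the estimated split between transcripts, and the transcripts of *Mdm2*, *Trp53inp1* and *Eda2r* were each given the length of 1 shared model.

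The transcript table holds 17 RefSeq transcripts of the 10 genes, of which 16 had enough counts for a test and 6 were called, beside 25.1% of the 18040 transcripts tested. *Eda2r* transcript NM_175540 had 0 counts in all libraries, which allows up to 3 counts or 0.0768 CPM in each. *Ccng1*, *Zmat3*, *Phlda3* and *Plk2* have 1 transcript each, which carries the gene's counts. How StringTie shared reads between transcripts of a gene is an estimate, and the 2 genes with separate start sites were the informative ones.

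*Cdkn1a* has a transcript from the upstream start, NM_001111099, where the pair of decamers lies, and one from a start 2790 bases downstream, NM_007669. The upstream transcript held 516, 51 and 663 counts in cKO and 43, 14 and 84 counts in control. It was high in cKO 1 and cKO 3, whereas cKO 2 lay among the controls. Its share of the *Cdkn1a* counts was 38.2%, 3.38% and 32.5% in cKO and 3.75%, 1.40% and 7.82% in control (two-sided exact permutation p = 0.3). The log2 fold change was 3.07 (SE 1.10, adjusted p = 0.0993, edgeR on transcripts), which did not pass. Without cKO 2 it was 3.60 (adjusted p = 0.0412), whereas *Xist* as a covariate gave 1.59 (adjusted p = 0.215). cKO 1, cKO 3 and control 3, the 3 highest libraries, are those with at most 16 *Xist* counts, and the part of this in the result was not tested. The downstream transcript read 18.4, 32.3 and 32.5 CPM in cKO and 24.5, 25.1 and 24.0 CPM in control, with cKO on both sides of the controls. Its log2 fold change was 0.18 (adjusted p = 0.647, edgeR on transcripts), and 0.40 (adjusted p = 0.0332) without cKO 1.

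For *Sesn1* the fall was called in the transcript from the downstream start, NM_001013370, which follows the decamer printed above. It read 9.94, 13.5 and 12.96 CPM in cKO and 33.0, 30.0 and 39.7 CPM in control. The groups were far apart, with a log2 fold change of −1.50 (SE 0.17, adjusted p = 0.00267, edgeR on transcripts). NM_001162908, which starts 77504 bases upstream in its GENCODE model, read 15.5, 10.2 and 16.3 CPM in cKO and 18.1, 26.7 and 13.6 CPM in control. These overlapped, with a log2 fold change of −0.48 (adjusted p = 0.328). The share of the downstream transcript overlapped between groups, 39.1% to 56.9% in cKO and 52.9% to 74.5% in control (two-sided exact permutation p = 0.2), so a difference between the transcripts in their fall is not shown.

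In *Eda2r*, NM_001161433 took 42.2%, 38.3% and 52.0% of the counts in cKO and 22.9%, 19.2% and 20.9% in control. The shares did not overlap, from 9 to 65 counts of this transcript per library (two-sided exact permutation p = 0.1, the smallest possible). Its log2 fold change of 1.66 did not pass (adjusted p = 0.0583, edgeR on transcripts), and the other tested transcript, NM_001161432, was at 0.01. The shares of *Trp53*, *Mdm2* and *Trp53inp1* transcripts overlapped between groups.

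**Figure D3:**
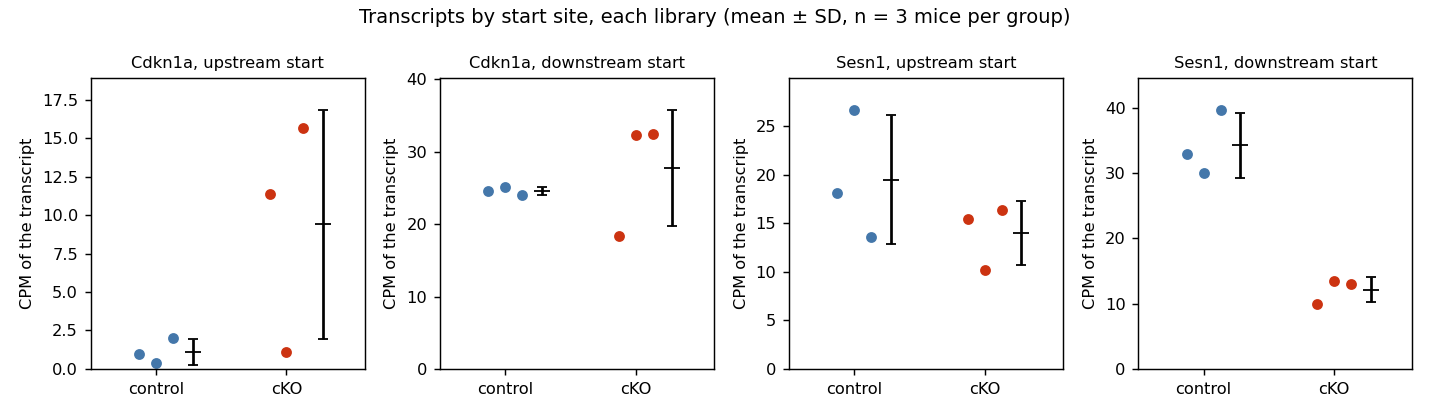
Level in CPM (vertical axes, each starting at 0) of the *Cdkn1a* and *Sesn1* transcripts by start site in the 3 control (blue) and 3 cKO (red) libraries, with mean and SD in black. The upstream *Cdkn1a* transcript is high in cKO 1 and 3 but not in cKO 2, and the downstream *Sesn1* transcript is lower in all 3 cKO libraries.

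Beyond the 10 genes, 37 further p53 targets were listed, of which 35 were tested, *Spata18* and *Gdf15* having too few counts. Of these, 11 rose and 11 fell, 9 of them past 1.5-fold, with a median log2 fold change of 0.18. The groups did not overlap for 28 of the 35. Over all genes tested, 48.6% were called, 21% were called past 1.5-fold and 58.7% did not overlap. They are given by role below, and differences between roles were not tested.

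Of 12 apoptosis genes, 9 rose and 1 fell, with a median log2 fold change of 0.52. *Aen*, a nuclease that p53 induces, rose from 23.9 ± 1.84 to 66.0 ± 10.7 CPM, a log2 fold change of 1.47 (adjusted p = 7.73e-06, edgeR). *Tnfrsf10b*, a TRAIL death receptor, rose by 1.10 (adjusted p = 6.9e-05) and *Apaf1*, the scaffold of the apoptosome, by 0.71 (adjusted p = 8.26e-06). The BH3-only gene *Bbc3*, which encodes PUMA, was the one that fell, from 52.3 ± 3.11 to 34.9 ± 4.29 CPM (log2 fold change −0.58, adjusted p = 0.000705, edgeR). *Pmaip1*, which encodes the BH3-only protein NOXA and was singled out with *Bax* and *Fas* after its values were seen, had −0.28 (adjusted p = 0.178). *Bax*, a pore former of the mitochondrial membrane, rose by 0.62 and *Fas*, a death receptor that also stands among the germinal center markers, by 0.41.

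Of 5 DNA repair genes none rose, and *Rrm2b*, a ribonucleotide reductase subunit, and *Ddb2*, which recognises UV lesions, fell by 0.87 and 0.51 on the log2 scale. Of 7 cell cycle genes, *Gtse1* rose by 0.49, whereas *Ptprv*, a receptor-type tyrosine phosphatase, fell by 1.28, the arrest gene *Gadd45a* by 0.75, the antiproliferative gene *Btg2* by 0.57 and *Sfn*, which encodes 14-3-3σ, by 0.44. *Gadd45a* was tight in both groups, with 26.8 ± 0.468 CPM in cKO and 45.2 ± 0.737 CPM in control (SD, n = 3 each). Of 9 metabolism genes, 8 were tested. The thiamine transporter gene *Slc19a2* rose by 0.87, and *Fuca1*, *Ephx1*, *Fdxr* and *Sesn2* fell by 0.49, 0.33, 0.33 and 0.23. *Sesn2* is the paralogue of *Sesn1*, which fell by 1.04. None of the 3 remaining genes tested was called.

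**Figure D4:**
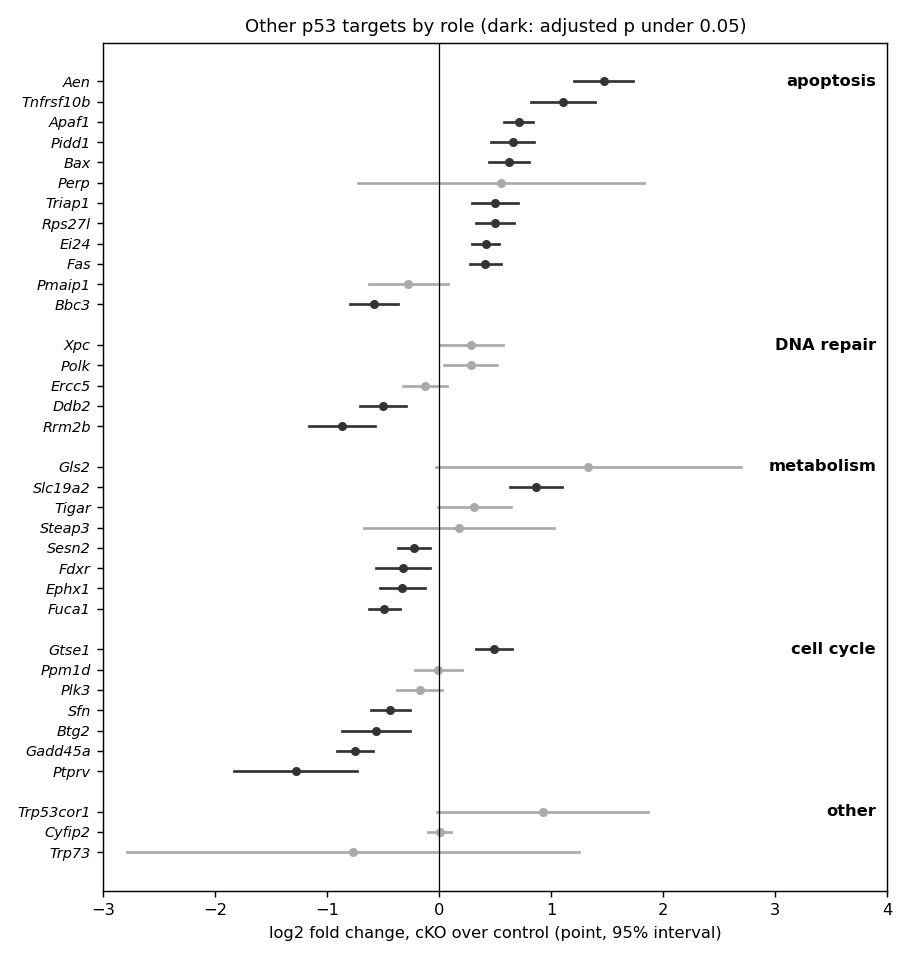
log2 fold change of cKO over control (horizontal axis, point and 95% interval) for the 35 other p53 targets tested, grouped by role and ordered by value, dark where the adjusted p was under 0.05. Most apoptosis genes lie to the right of 0, led by *Aen* at 1.47, and the called DNA repair genes and most called cell cycle genes lie to the left.

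Among 25 genes that act on p53, 12 rose and 5 fell, with 3 past 1.5-fold and a median log2 fold change of 0.15, beside 48.6% of all genes called and 21% past 1.5-fold. The largest increases were those of *Hipk2*, a kinase of p53, from 37.6 ± 2.41 to 64.8 ± 1.55 CPM (log2 fold change 0.79, adjusted p = 1.46e-05, edgeR), of *Ppp1r13b*, which encodes the p53 partner ASPP1 (0.63), of the deubiquitinase *Usp10* (0.59) and of the acetyltransferase *Ep300* (0.34). Of the 6 kinases of damage signalling, *Atm* (0.20) and *Hipk2* rose and *Atr*, *Chek1*, *Chek2* and *Prkdc* did not pass. The genes that fell were the deacetylase *Sirt1* (−0.39), the ubiquitin ligase *Rchy1* (−0.39), *Bcl6* (−0.32), the acetyltransferase *Kat5* (−0.32) and *Mdm4* (−0.28), the partner of MDM2 that inhibits p53. *Mdm4* read 283, 259 and 268 CPM in cKO and 330, 341 and 309 CPM in control, without overlap. *Bcl6* read 82.2, 81.3 and 86.8 CPM in cKO against 110, 99.9 and 103 CPM in control, also without overlap.

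Of 13 genes of the cyclins, CDKs and related proteins that p21 acts with, 3 rose and 4 fell, with a median log2 fold change of 0.09, beside 48.6% of all genes called. *Cdk6* rose from 80.1 ± 2.5 to 167 ± 10.2 CPM (SD, n = 3 each, log2 fold change 1.06, adjusted p = 1.47e-06, edgeR), its partner *Ccnd2* rose by 0.83 and *Ccne2*, a cyclin of CDK2, by 0.45. *Cdk2* itself had 0.09 (adjusted p = 0.194, edgeR). *Cdk1*, the kinase of mitosis, fell by 0.59, *Cdkn1b*, which encodes the p21 relative p27, by 0.57, *Cdk4* by 0.23 and *Ccna2* by 0.21 on the log2 scale. *Cdkn1b* therefore fell where *Cdkn1a* rose. *Pcna*, the replication clamp that p21 binds, overlapped between groups, with −0.03 (adjusted p = 0.746, edgeR).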

How the data were processed

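Polyadenylated RNA of 3 cKO and 3 control libraries of sorted YFP+ day 3 iGCBs was sequenced, each from 1 mouse. After trimming, the authors used HISAT2 for alignment and StringTie with its prepDE script for quantification on mm10 (per the labels), and deposited 1 table of estimated counts for genes and 1 for RefSeq transcripts. The deposited estimated counts were whole and not normalized. Tool versions, the read length setting and the use of strand were not given in the sources used here. Groups came from the sample titles, which give day 3, as do the time labels, while the general growth protocol gives a longer culture.

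Counts were filtered with filterByExpr (minimum count 10), scaled by TMM and tested with edgeR 4.0.16 (quasi-likelihood, no covariate, Benjamini-Hochberg over all features) in R 4.3.3 with limma 3.58.1. Intervals are 95% intervals from the fit, and SE is the log2 fold change over the root of its F statistic. Intervals and floors cover counting error and the spread between these libraries only. Transcripts were assigned to genes with RefSeq (GRCm38.p6), which matched 34674 of 36026. Gene positions are those of GENCODE M21. For per kb levels the CPM of each transcript was divided by the exonic length of its GENCODE model and summed over the gene.

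The members and lists were chosen with earlier results of these data known. Named genes were the 10 members and, of each other list, the 4 largest increases and decreases with an adjusted p under 0.05 and at least 1 CPM, and every call of a list with 5 or fewer, with *Eif3e* and *Xist* as checks and the 3 genes most like *Trp53*, *Cdkn1a* and *Mdm2*. Other genes named within a role were chosen after their values were seen. The test was tried on simulated data in which 200 of 13296 genes were changed 2-fold, a far smaller share than the 48.6% called here. Rates of recovery and of wrong calls may therefore differ in the real data. Of the 198 changed genes tested, edgeR recovered 144 with 12 unchanged genes called, and DESeq2 149 of 200 with 29. The limit first set, over 75% recovered, was missed. It was replaced by a limit for the 135 changed genes of 300 counts or more, all of which both tools recovered. For transcripts changed 4-fold, edgeR recovered 88 of 193 with 4 unchanged ones called, so a transcript without a call may still differ. A test of transcript use (diffSpliceDGE) had 41.38% wrong calls on simulated data and was dropped, and the shares of transcripts with an exact permutation test were chosen in its place after the transcript values were seen. Alternatives were DESeq2 1.42.0, its size factors, total counts, other count filters, counts divided by 2, the replicate block, *Xist* or fibroblast markers as a covariate and each library left out in turn. Some genes of the marker lists are not reported here.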

Additional observations from a re-analysis of the deposited data

How the results depend on the processing

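All 10 genes kept their side of the threshold under the 15 alternatives, and none of the 7 called genes changed sign. The log2 fold change ranged from 0.42 to 0.48 for *Trp53*, 1.19 to 1.35 for *Ccng1*, 1.20 to 1.42 for *Zmat3*, 1.54 to 1.79 for *Phlda3*, 0.30 to 0.67 for *Cdkn1a* (highest adjusted p = 0.0488, edgeR without control 1), −0.74 to −0.54 for *Trp53inp1*, −1.13 to −0.97 for *Sesn1* and 0.29 to 0.92 for *Eda2r*. The counts of calls in each list stayed within 1.5 times the reported ones. Equal replicate numbers did not mark shared animals, as the groups differ in genotype. Deviations of same-numbered libraries correlated by 0.009, 0.084 and 0.133 for replicates 1, 2 and 3. Those of the other pairs correlated by −0.169 to 0.103. Whether equal numbers mark a shared culture run cannot be told from these values. With the replicate number as a block (replicate block), 6234 of all genes in place of 6468 were called, 7 of the 10 genes were called, and the upstream *Cdkn1a* transcript was called at a log2 fold change of 2.75 (adjusted p = 0.0467, edgeR), as it was without cKO 2 (3.60). The downstream one was called without cKO 1 (0.40). No other member transcript changed its side of the threshold under its alternatives. *Eda2r* had the fewest counts of the 10 genes, 43 to 125 per library.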

Other observations

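The genes whose levels over the 6 libraries were most like those of a member were ranked among 8513 genes with a mean of at least 10 CPM by the root mean square difference of log2 CPM centred on each gene's mean. For *Trp53* these were *Ccar1* (0.021), *Tbl1x* (0.022) and *Rnaseh2c* (0.025). *Ccar1* read 203, 204 and 212 CPM in cKO and 148, 143 and 155 CPM in control. For *Mdm2* they were *Taf2* (0.022), *Ncoa2* (0.025) and *Rfc3* (0.026), and *Taf2* read 71.8, 77.5 and 79.9 CPM in cKO and 81.8, 75.6 and 72.5 CPM in control, interleaved as *Mdm2* was. For *Cdkn1a* they were *Fam222b* (0.082), *Elk1* (0.096) and *Fam73b* (0.10), a likeness farther off than for the other genes. *Fam222b* read 14.6, 16.9 and 20.3 CPM in cKO and 12.2 CPM in each control. None of these 9 genes is on the lists of further p53 targets (37 genes) or regulators (25 genes) used here. Those lists are short beside the 8513 genes ranked, so no conclusion is drawn from this.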
